A study of Mus musculus with 6 samples.

Results

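Translation initiation factors are the proteins that load a ribosome onto a messenger RNA and set it at the start codon. Their genes were taken as the rows of the deposited FPKM table whose symbol begins with Eif and a digit, which also takes in the 4 kinases of eIF2 and the eIF4E-binding proteins. The rule found 55 genes of 23997. They were compared in iWAT, the inguinal depot of white fat under the skin, between 3 Atf4AKO libraries and 3 Atf4WT libraries. Atf4AKO mice carried floxed Atf4 and Cre recombinase driven by the adiponectin promoter (AdipoqCre), so deletion is directed to adipocytes. Atf4WT mice carried the same floxed gene without Cre. Every mouse of both groups was housed at 22 °C and then spent 12 h at 5 °C, so the values describe genotypes in the cold and hold no room-temperature control. The labels give no age and do not state whether a library is 1 animal or a pool, so the tests weigh a difference against the spread of these 6 libraries, part of which may be technical. Cre is present in every Atf4AKO library, and its effect and that of Atf4 loss cannot be told apart.

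Initiation runs through 2 regulated steps. eIF2 brings the initiator methionyl-tRNA to the small ribosomal subunit, and eIF2B recharges eIF2 with GTP after each round. Under stress a kinase phosphorylates the alpha subunit of eIF2, which then blocks eIF2B, and bulk protein synthesis drops while a few messengers, among them that of Atf4, are translated more. At the other step eIF4E binds the cap of the messenger and recruits the scaffold eIF4G and the helicase eIF4A, unless a 4E-binding protein holds it. ATF4 is the main transcription factor downstream of eIF2 phosphorylation, and in other mouse tissues the gene of 4E-binding protein 1 is among its known targets.

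The kinases act on a single serine of the alpha subunit, encoded by Eif2s1. The coding sequence around that codon is shown because 4 of the genes described here meet at it. It covers bases 130 to 180 of the coding sequence in GENCODE release M21 (GRCm38), and the capitals mark codon 52 with the start codon counted, which is serine 51 of the mature protein.
Eif2s1: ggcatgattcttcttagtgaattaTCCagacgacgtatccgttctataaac

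The gamma subunit of eIF2 has a copy on each sex chromosome of the mouse, Eif2s3y and Eif2s3x, and both were measured here. Their coding sequences have 1416 bases each and 86.3% identity, with 34 bases as the longest identical run. The first 90 bases are shown with their 16 differing bases in capitals, since reads are assigned to one copy or the other by such bases.
Eif2s3y: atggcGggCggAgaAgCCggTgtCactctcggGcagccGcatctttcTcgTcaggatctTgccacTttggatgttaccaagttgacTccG
Eif2s3x: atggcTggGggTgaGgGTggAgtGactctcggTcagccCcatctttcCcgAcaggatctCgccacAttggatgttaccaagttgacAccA

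Atf4 itself followed the labels. It was 152.1, 140.2 and 114.1 FPKM in Atf4AKO and 257.6, 323 and 316.9 FPKM in Atf4WT, in which FPKM scales fragment counts by transcript length and by the 1000000 fragments mapped. Every Atf4AKO library lay below every Atf4WT library, at a ratio of means of 0.453, and the log2 difference was -1.14 (SE 0.16). The limma adjusted p over all 12818 genes tested was 0.49, so it did not pass. A two-sided exact permutation test gave p = 0.1, which 3 against 3 libraries cannot go below. The libraries also differed in tissue makeup. The summed FPKM of 20 skeletal muscle markers was 3497, 9765 and 39.4 in Atf4AKO against 42.2, 1041 and 36.8 in Atf4WT, and that of 10 macrophage markers was 2703, 936.1 and 468.9 in Atf4AKO against 571.7, 375.8 and 235.5 in Atf4WT. Of these, 4 muscle markers and 1 macrophage marker were listed at 0 in at least 1 library. The 10 epithelial markers summed to 1.23, 5.09 and 230.6 FPKM in Atf4AKO and to 1207, 227.5 and 1.48 FPKM in Atf4WT, and 10 adipocyte markers, Adipoq and Plin1 among them, summed to between 62310 and 95300 FPKM in Atf4AKO and between 54180 and 75990 FPKM in Atf4WT. Fibroblast markers summed to 2696, 1571 and 1189 FPKM in Atf4AKO and to 1358, 788.7 and 753.6 FPKM in Atf4WT, thermogenic adipocyte markers to 1496, 1575 and 1429 FPKM in Atf4AKO and to 207.8, 3754 and 1077 FPKM in Atf4WT. Endothelial markers lay between 301.3 and 455.8 FPKM in Atf4AKO and between 269 and 356.4 FPKM in Atf4WT, and neither B nor T lymphocyte markers summed to more than 6.53 FPKM in any library. Most of the muscle RNA was in Atf4AKO 1, Atf4AKO 2 and Atf4WT 2. The part of tissue makeup in the results was not tested. Where values without these 3 libraries are given, Atf4AKO 3 alone is set against Atf4WT 1 and Atf4WT 3. Those libraries still differed in epithelial and thermogenic markers, so such values cannot separate makeup from genotype. In a whole pad fewer cells of a type and less RNA per cell cannot be told apart.

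None of the initiation factors or eIF2 kinases passed the test. Of the 55 members 54 had a mean of at least 0.5 FPKM and were tested. Eif4e1b, a paralog of the cap-binding protein known from mouse oocytes, was listed at 0.039 FPKM in Atf4AKO 1 and at 0 in the other 5 libraries. The count of members past a limma adjusted p of 0.05 was 0, and the smallest adjusted p was 0.50, while 0.0156% of all tested genes passed. At an unadjusted p under 0.05 there were 3 members (5.56%), against 9.95% of all tested genes. The Atf4AKO libraries lay wholly above those of Atf4WT in 7 members (13.0%, against 8.21% of all genes) and below them in 3 (5.56%, against 8.34%). Single libraries moved these counts, and the shares over all genes moved too. At an unadjusted p under 0.05 there were 1 without Atf4AKO 1 (6.07% of all genes), 0 without Atf4AKO 2 (3.90%), 6 without Atf4AKO 3 (20.3%), 0 without Atf4WT 2 (7.78%) and 1 without Atf4WT 3 (5.89%). Wholly above were 12 without Atf4AKO 1 (12.2% of all genes) and 14 without Atf4AKO 3 (20.7%). Wholly below were 5 without Atf4AKO 2 (9.83% of all genes), 8 without Atf4AKO 3 (20.6%), 6 without Atf4WT 1 (14.8%) and 7 without Atf4WT 2 (14.7%).

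The spread of the members within groups sets how large a difference could have been missed. The log2 difference, Atf4AKO minus Atf4WT on the log2(FPKM + 1) scale, had a median of 0.029 over the members and 0.005 over all tested genes. Its median absolute size was 0.12 in members and 0.18 in all genes, and the median SD within groups was 0.11 in members and 0.21 in all genes. In 38 of 54 members the 95% interval lay wholly between -0.5 and 0.5, and in 52 it lay between -1 and 1. The exceptions to the wider range were Eif4ebp3 and Eif3j1. Scaling matters for the sign of small differences: when libraries were rescaled to the same sum of FPKM, the median of all genes moved to -0.121 and that of the members to -0.122. The count of members wholly above Atf4WT then became 0 (3.26% of all genes) and of those wholly below 7 (13.9% of all genes). As before, 0 passed the adjusted threshold. Rescaling instead by the median over genes of each library's ratio to the mean of all libraries changed little. The median was then 0.029 over the members and 0.005 over all genes. Wholly above were 8 members (8.2% of all genes) and wholly below 4 (8.4% of all genes). Differences are given here on the deposited scale, and ratios between members of the same library, which no library scaling can change, are set beside them. These ratios were chosen after the values were seen and have no test. Where a member of the pair already did not overlap between genotypes, a ratio without overlap is not separate evidence.

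**Figure D1:**
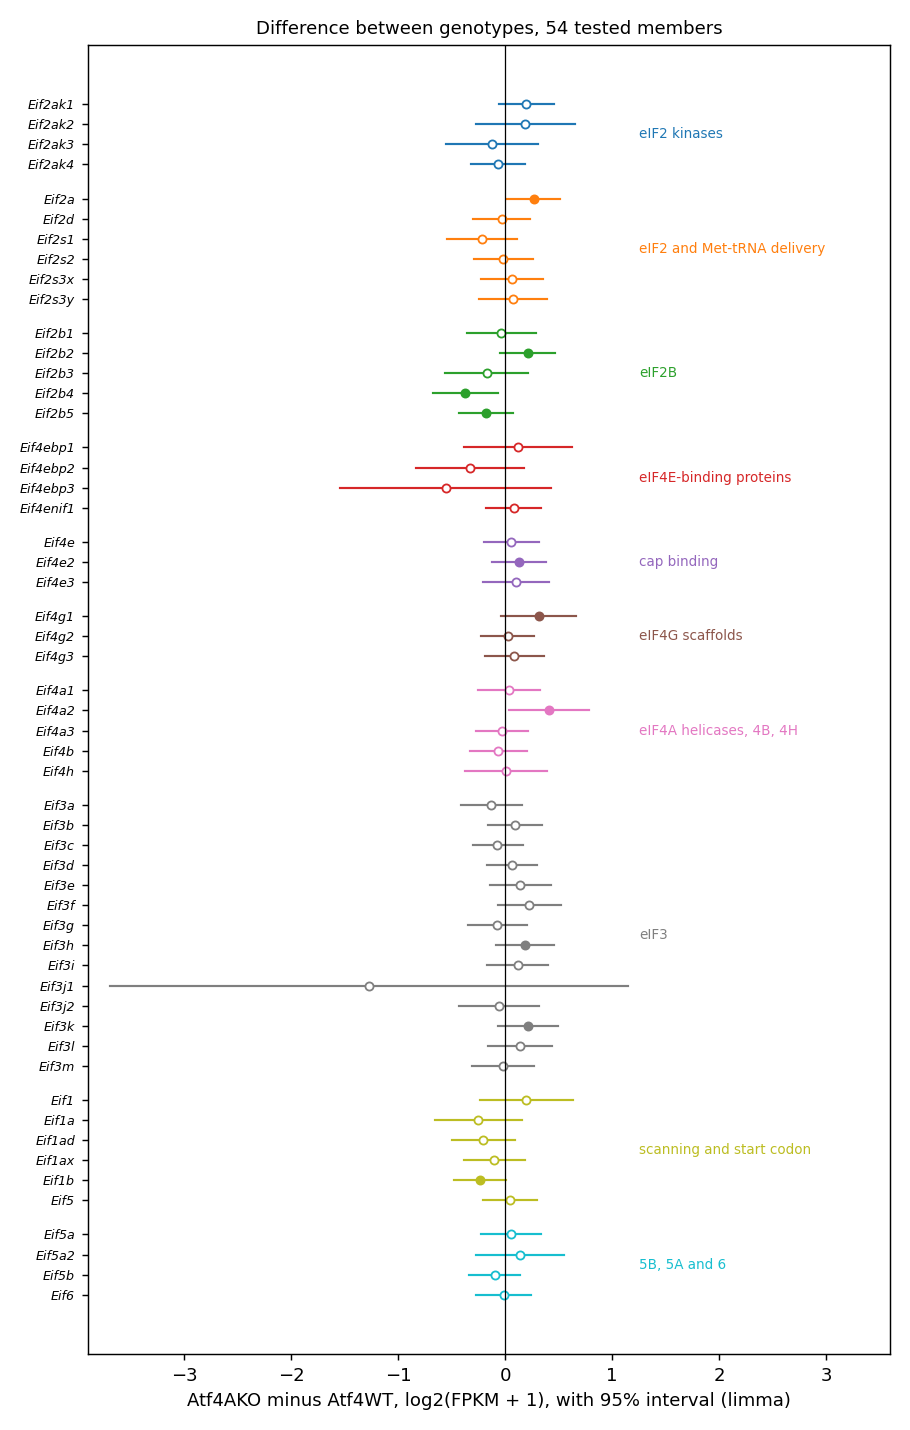
Difference between genotypes for the 54 tested members, grouped by role. The x axis is Atf4AKO minus Atf4WT on the log2(FPKM + 1) scale with the 95% interval of limma, and filled points mark the 10 members whose libraries do not overlap between groups. The intervals of Eif2b4, Eif4a2 and Eif2a leave out 0 before adjustment, and that of Eif3j1 runs from -3.69 to 1.15.

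The 4 eIF2 kinases were all present in the pad and none passed the test. Eif2ak1, which encodes the heme-regulated kinase HRI that also relays mitochondrial stress, was the most abundant. It was 20.8, 22.6 and 22.2 FPKM in Atf4AKO and 18.25, 17.8 and 20.9 FPKM in Atf4WT. The groups met at a single pair of libraries, 20.79 FPKM in Atf4AKO 1 against 20.89 FPKM in Atf4WT 3. The log2 difference was 0.20 (SE 0.11, 95% interval -0.06 to 0.46, limma adjusted p = 0.527), and 0.05 after rescaling to equal sums. Exons of Eif2ak1 share 487 bases with Aimp2 on the opposite strand, and the sources used here do not say if strand was used in counting.

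The other 3 kinases lay far below Eif2ak1 and close to each other. Eif2ak3, the endoplasmic reticulum kinase PERK, was 4.904, 3.399 and 4.197 FPKM in Atf4AKO and 5.131, 3.549 and 5.254 FPKM in Atf4WT. Eif2ak4, the amino acid sensor GCN2, was 3.03, 3.18 and 3.27 FPKM in Atf4AKO and 3.47, 3.47 and 3.15 FPKM in Atf4WT. Eif2ak2, the kinase PKR that responds to double-stranded RNA, was 3.47, 3.29 and 2.53 FPKM in Atf4AKO and 3.59, 2.17 and 2.14 FPKM in Atf4WT. Eif2ak3 was the highest of these 3 in every library, while the order of Eif2ak4 and Eif2ak2 changed between libraries. Eif2ak1 exceeded the sum of the other 3 in every library. That ratio was 1.822, 2.293 and 2.222 in Atf4AKO and 1.498, 1.936 and 1.981 in Atf4WT. The log2 differences of PERK, GCN2 and PKR were -0.12, -0.07 and 0.19, with limma adjusted p from 0.674 to 0.783. The difference of Eif2ak2 was -0.10 without the 3 muscle-rich libraries, which leaves 1 Atf4AKO and 2 Atf4WT libraries.

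**Figure D2:**
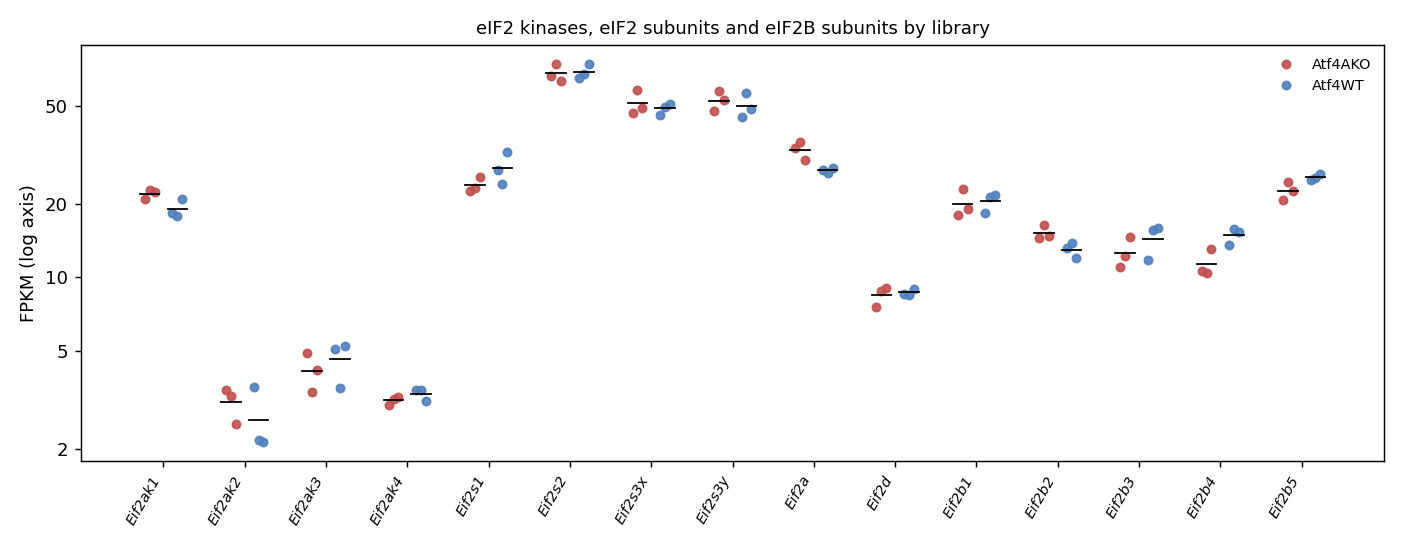
FPKM on a log axis of the eIF2 kinases, the eIF2 subunits with Eif2a and Eif2d, and the eIF2B subunits. Points are libraries (Atf4AKO left, Atf4WT right of each gene) and bars are means of 3. Eif2ak1 stands above the other kinases in both groups, and Eif2a, Eif2b2, Eif2b4 and Eif2b5 are the genes whose groups do not overlap.

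None of the eIF2 subunits passed the test. Eif2s1, the alpha subunit that carries the phosphorylated serine shown above, was 22.5, 23.3 and 25.6 FPKM in Atf4AKO and 27.5, 24.1 and 32.4 FPKM in Atf4WT. Its groups overlapped through Atf4AKO 3 and Atf4WT 2, and its log2 difference was -0.22 (SE 0.14, limma adjusted p = 0.555). It was -0.36 after rescaling to equal sums and -0.11 without Atf4WT 3. Eif2s2, the beta subunit, was 66.6, 74.4 and 63.03 FPKM in Atf4AKO and 65.1, 67.4 and 74.0 FPKM in Atf4WT, a log2 difference of -0.02 with an interval from -0.29 to 0.26. The alpha subunit thus had the lowest FPKM of the complex in every library.

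The gamma subunit was split about evenly between its sex chromosome copies. Eif2s3y was 47.5, 57.6 and 52.8 FPKM in Atf4AKO and 45, 56.6 and 48.4 FPKM in Atf4WT. Eif2s3x was 46.7, 58.0 and 49.2 FPKM in Atf4AKO and 46.1, 49.6 and 50.9 FPKM in Atf4WT. The ratio of Eif2s3y to Eif2s3x averaged 1.03 ± 0.0406 in Atf4AKO and 1.02 ± 0.103 in Atf4WT (SD, n = 3 each). All 6 libraries therefore held Y-linked RNA, and Xist, the RNA of X inactivation, was at most 0.0147 FPKM in any of them. Sex, which the labels do not give, thus did not vary between the groups by these genes. The sum of the copies was 94.2, 115.6 and 102 FPKM in Atf4AKO and 91.1, 106.3 and 99.3 FPKM in Atf4WT, so the groups overlapped.

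Eif2a and Eif2d are not subunits of eIF2 but separate proteins that can deliver tRNA to the ribosome without it. Eif2a was 33.8, 35.6 and 30.2 FPKM in Atf4AKO and 27.5, 26.7 and 27.9 FPKM in Atf4WT. The groups did not overlap, with Atf4AKO the higher at a ratio of means of 1.21. The log2 difference was 0.27 (SE 0.10, limma adjusted p = 0.50, so it did not pass), and it lay between 0.22 and 0.33 when any single library was left out. It was 0.12 without the 3 muscle-rich libraries and 0.12 after rescaling to equal sums. Set against Eif2s1 in the same library, Eif2a stood at 1.503, 1.529 and 1.178 in Atf4AKO and at 1.003, 1.11 and 0.861 in Atf4WT. The lack of overlap in this ratio is not separate evidence, since Eif2a alone was wholly higher. Eif2a spans chr3:58525821-58557501 (GRCm38, plus strand) and shares 72 exonic bases with Serp1 on the opposite strand. Eif2d was 7.56, 8.83 and 9.06 FPKM in Atf4AKO and 8.56, 8.51 and 8.99 FPKM in Atf4WT, and the groups overlapped.

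The 5 subunits of eIF2B, the exchange factor on which eIF2 phosphorylation acts, lay on both sides. Eif2b4, the delta subunit, had the smallest unadjusted p of all members. It was 10.6, 10.4 and 13.02 FPKM in Atf4AKO and 13.6, 15.8 and 15.4 FPKM in Atf4WT. The groups did not overlap, with Atf4AKO the lower and Atf4AKO 3 nearest to Atf4WT. The log2 difference was -0.37 (SE 0.13, 95% interval -0.68 to -0.07, limma adjusted p = 0.50, so it did not pass). It lay between -0.47 and -0.32 when any single library was left out, and was -0.51 after rescaling to equal sums. With the muscle marker score as a covariate it was -0.30, and without the 3 muscle-rich libraries -0.14. Eif2b4 spans chr5:31187558-31193430 (GRCm38, minus strand), and its exons share 204 bases with Snx17 on the opposite strand.

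Eif2b2, the beta subunit, was higher in every Atf4AKO library. It was 14.5, 16.3 and 14.8 FPKM in Atf4AKO and 13.2, 13.8 and 12.0 FPKM in Atf4WT, with a log2 difference of 0.21 (SE 0.11, limma adjusted p = 0.515). Eif2b5, the catalytic epsilon subunit, was 20.6, 24.5 and 22.5 FPKM in Atf4AKO and 25.03, 25.4 and 26.4 FPKM in Atf4WT, every Atf4AKO library being lower, with a log2 difference of -0.18 (SE 0.11, limma adjusted p = 0.544). Neither passed. After rescaling to equal sums the difference was 0.07 for Eif2b2 and -0.32 for Eif2b5, and without Atf4AKO 1 it was -0.12 for Eif2b5.
The ratio of Eif2b4 to Eif2b2 was 0.730, 0.639 and 0.881 in Atf4AKO and 1.03, 1.15 and 1.28 in Atf4WT. That of Eif2b5 to Eif2b2 was 1.43, 1.51 and 1.53 in Atf4AKO and 1.90, 1.84 and 2.21 in Atf4WT. Neither ratio overlapped between genotypes. That follows from the choice of pairs, since Eif2b4 and Eif2b5 were wholly lower and Eif2b2 wholly higher in Atf4AKO. Eif2b1, the alpha subunit, was 17.9, 23.02 and 19.0 FPKM in Atf4AKO and 18.4, 21.2 and 21.7 FPKM in Atf4WT. Eif2b3, the gamma subunit, was 11.01, 12.3 and 14.6 FPKM in Atf4AKO and 11.8, 15.6 and 15.9 FPKM in Atf4WT. Both overlapped between genotypes, and the sign of Eif2b3 turned to 0.09 without the 3 muscle-rich libraries.

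**Figure D3:**
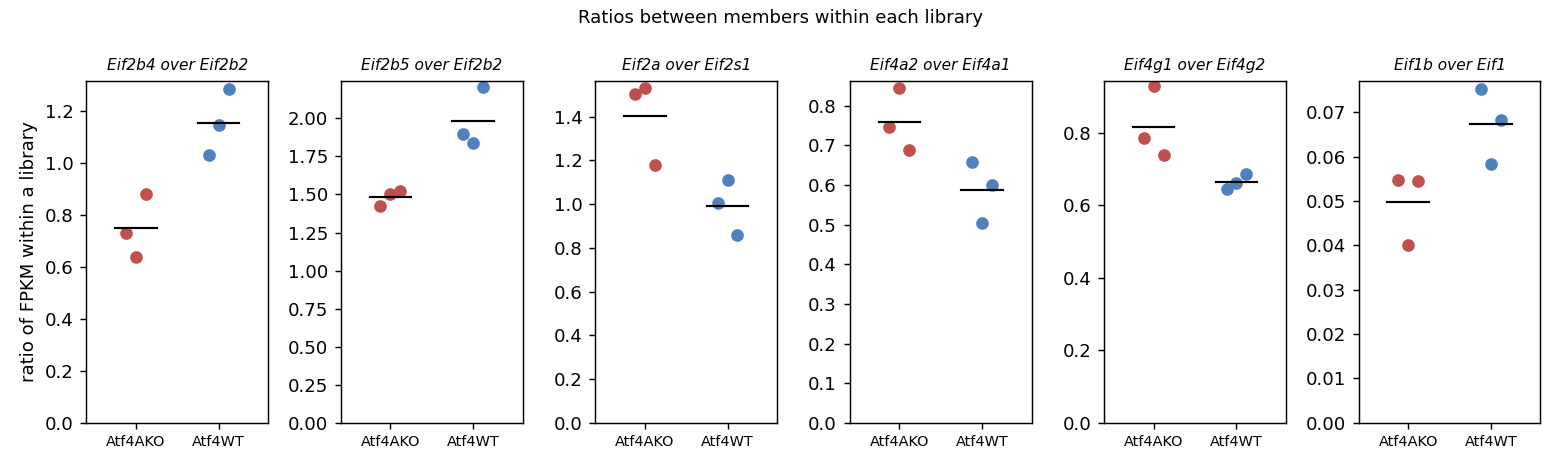
Ratios of FPKM between pairs of members within each library, with Atf4AKO left and Atf4WT right. Points are libraries, bars are means of 3 and every y axis starts at 0. The 6 ratios drawn were chosen after the values were seen, as those whose groups do not overlap. Ratios that overlapped, such as Eif4ebp1 over Eif4e and Eif2s3y over Eif2s3x, are not drawn. Eif2b4 over Eif2b2 reaches at most 0.881 in Atf4AKO and is at least 1.03 in Atf4WT.

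Eif4ebp1, a known ATF4 target in other mouse tissues, did not pass the test. It averaged 246.4 ± 33.0 FPKM in Atf4AKO and 229.6 ± 58.2 FPKM in Atf4WT (SD, n = 3 each). It was 208.4, 268 and 262.8 FPKM in Atf4AKO and 183.5, 210.2 and 295 FPKM in Atf4WT. The Atf4AKO libraries all lay within the range of the Atf4WT libraries. The log2 difference was 0.12 (SE 0.21, limma adjusted p = 0.806), with a 95% interval from -0.38 to 0.62, and it ran from -0.02 without Atf4WT 1 to 0.32 without Atf4WT 3. After rescaling to equal sums it was -0.03. It was the most abundant of the 4E-binding proteins, at the 98.3 percentile of all genes by mean FPKM. Relative to Eif4e, the protein it holds, it stood at 9.79, 11.3 and 13.4 in Atf4AKO and at 8.72, 10.3 and 14.5 in Atf4WT.

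Eif4ebp3 and Eif4ebp2 ranged within each genotype by more than the difference of the means. Eif4ebp3, a 4E-binding protein prominent in mouse liver, was 60.8, 106.5 and 183.4 FPKM in Atf4AKO and 171.7, 114.6 and 194.3 FPKM in Atf4WT. The 3 lowest values belong to Atf4AKO 1, Atf4AKO 2 and Atf4WT 2, the libraries with most muscle RNA. Eif4ebp2 was 27.1, 24.4 and 39.0 FPKM in Atf4AKO and 45.2, 32.9 and 35.2 FPKM in Atf4WT, with the same 3 libraries lowest.
The log2 difference of Eif4ebp3 was -0.56 (SE 0.41, limma adjusted p = 0.588), and that of Eif4ebp2 was -0.33 (SE 0.21, limma adjusted p = 0.558). With the muscle marker score as a covariate these were -0.10 for each, and without the 3 muscle-rich libraries they were 0.01 for Eif4ebp3 and -0.03 for Eif4ebp2. Leaving out Atf4AKO 1 gave -0.16 for Eif4ebp3, and leaving out Atf4AKO 3 gave -0.95 for Eif4ebp3 and -0.52 for Eif4ebp2. Without Atf4AKO 2, and likewise without Atf4WT 1, Eif4ebp2 stood at -0.195. Eif4ebp3 shares 501 exonic bases with the annotated gene AC115631.1 on the same strand, so its reads may not all be its own. Eif4enif1, which carries eIF4E into the nucleus and to repressed messengers, was 15.5, 16.2 and 14.5 FPKM in Atf4AKO and 14.9, 13.2 and 15.4 FPKM in Atf4WT. The 3 binding proteins together exceeded Eif4e by 13.9, 16.7 and 24.7 times in Atf4AKO and by 19.0, 17.5 and 25.7 times in Atf4WT, in FPKM of RNA and not of protein.

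The 3 cap-binding genes that were tested had log2 differences between 0.06 and 0.13, and none passed. Eif4e was 21.3, 23.8 and 19.7 FPKM in Atf4AKO and 21.06, 20.5 and 20.4 FPKM in Atf4WT, a log2 difference of 0.06 with a 95% interval from -0.20 to 0.32. Eif4e2, a paralog that represses rather than recruits, was 25.3, 23.98 and 23.55 FPKM in Atf4AKO and 20.2, 23.5 and 22.8 FPKM in Atf4WT. Its groups did not overlap, but only by 23.55 FPKM in Atf4AKO 3 against 23.48 FPKM in Atf4WT 2, and its limma adjusted p was 0.613. Eif4e3 was 39.1, 46.9 and 40.9 FPKM in Atf4AKO and 43.9, 35.8 and 38.5 FPKM in Atf4WT. It shares 373 exonic bases with Gm20696 on the same strand.

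**Figure D4:**
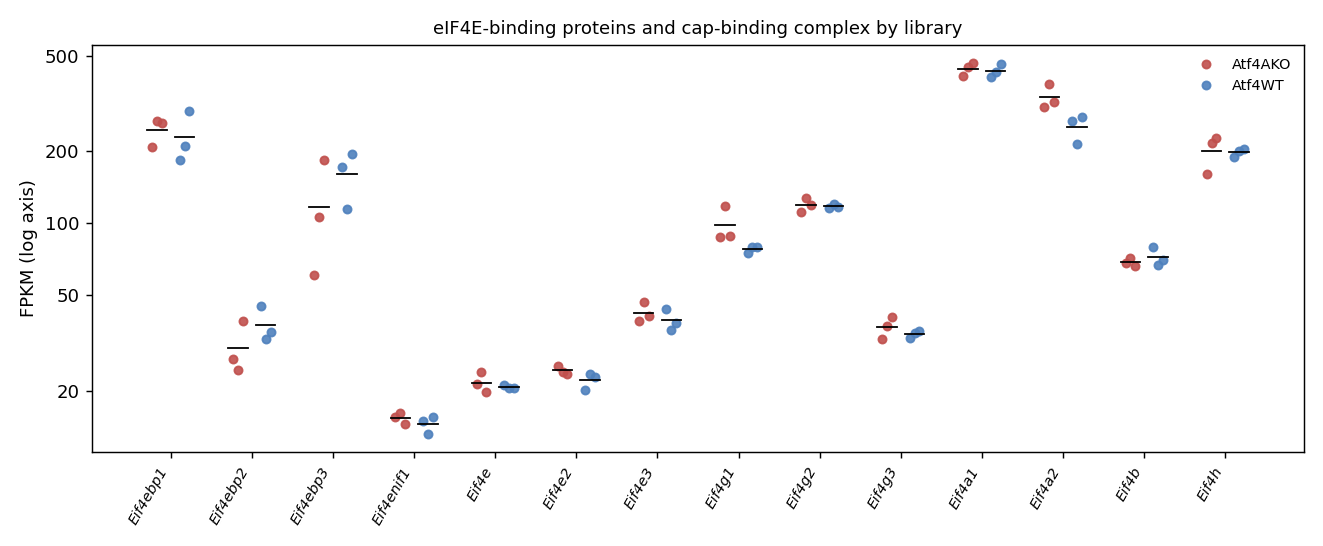
FPKM on a log axis of the 4E-binding proteins, the cap-binding proteins, the eIF4G scaffolds and the eIF4A helicases with Eif4b and Eif4h. Points are libraries (Atf4AKO left, Atf4WT right of each gene) and bars are means of 3. Eif4ebp3 spreads from 60.8 to 194.3 FPKM, while Eif4e stays between 19.7 and 23.8 FPKM.

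Eif4a2 had the largest positive difference of the members. It encodes a helicase paralog of Eif4a1 that takes part in repression by microRNAs as well as initiation. It was 307.2, 381.5 and 321.2 FPKM in Atf4AKO and 268.2, 215.1 and 277.6 FPKM in Atf4WT. The groups did not overlap, with Atf4AKO the higher at a ratio of means of 1.33, and the log2 difference was 0.41 (SE 0.15, 95% interval 0.04 to 0.78, limma adjusted p = 0.50, so it did not pass). It lay between 0.30 and 0.48 when any single library was left out, and was 0.43 with the muscle marker score as a covariate, 0.26 after rescaling to equal sums and 0.24 without the 3 muscle-rich libraries. Eif4a2 spans chr16:23107444-23114136 (GRCm38, plus strand), and 194 exonic bases are shared with Rfc4 on the opposite strand.

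Eif4a1, the main helicase, overlapped between genotypes. It was 410.9, 451.1 and 466.7 FPKM in Atf4AKO and 406.9, 427 and 462.5 FPKM in Atf4WT, a log2 difference of 0.04 with a 95% interval from -0.26 to 0.33. The coding sequences of Eif4a2 and Eif4a1 have 77.8% identity with at most 20 identical bases in a row, fewer than in Eif2s3y and Eif2s3x. The ratio of Eif4a2 to Eif4a1 was 0.748, 0.846 and 0.688 in Atf4AKO and 0.659, 0.504 and 0.6003 in Atf4WT. Every Atf4AKO library lay above every Atf4WT library in this ratio, as in Eif4a2 alone.

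Eif4g1, the main scaffold that joins the cap-binding protein to eIF3, was 87.8, 118.6 and 88.1 FPKM in Atf4AKO and 74.9, 79.7 and 79.8 FPKM in Atf4WT. The groups did not overlap, and Atf4AKO 2 stood apart at the top. The log2 difference was 0.31 (SE 0.15, limma adjusted p = 0.504), 0.17 without Atf4AKO 2 and 0.16 after rescaling to equal sums. Atf4AKO 2 is the library with the highest muscle marker sum, 9765 FPKM. It also has the highest adipocyte marker sum, 95300 FPKM, and the highest sum over all genes, 717778 FPKM. Atf4AKO 1, next in muscle markers at 3497 FPKM, had 87.8 FPKM of Eif4g1. What sets Atf4AKO 2 apart was not tested. Eif4g2, a scaffold without the eIF4E-binding site, was 111.8, 127.8 and 119.6 FPKM in Atf4AKO and 116.3, 120.5 and 116.5 FPKM in Atf4WT. The ratio of Eif4g1 to Eif4g2 was 0.785, 0.928 and 0.737 in Atf4AKO and 0.644, 0.662 and 0.685 in Atf4WT. Eif4g3, Eif4b, Eif4h and the exon junction helicase gene Eif4a3 overlapped between genotypes, with log2 differences from -0.06 to 0.09.

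The eIF3 genes encode the large scaffold that holds the small ribosomal subunit, and 14 of them had a value. Leaving out Eif3j1 and Eif3j2, mean FPKM over the 6 libraries ran from 66.4 for Eif3a to 145.4 for Eif3k. The set had 8 positive and 6 negative differences with a median of 0.08, and 0 passed. Eif3k was 153.6, 168.6 and 146.3 FPKM in Atf4AKO and 124.7, 145.1 and 133.9 FPKM in Atf4WT. Eif3h was 134.2, 146.8 and 125.7 FPKM in Atf4AKO and 124.4, 121.8 and 111.4 FPKM in Atf4WT. In both the Atf4AKO libraries lay wholly above, with the nearest pair at 146.3 against 145.1 FPKM for Eif3k and 125.7 against 124.4 FPKM for Eif3h, and their log2 differences were 0.21 and 0.18 (limma adjusted p = 0.529 and 0.553). Eif3f, at 94.6, 90.1 and 77.6 FPKM in Atf4AKO and 78.8, 69.2 and 75.2 FPKM in Atf4WT, overlapped through Atf4AKO 3 and had a log2 difference of 0.23 (SE 0.12, limma adjusted p = 0.525). After rescaling to equal sums the log2 difference was 0.06 for Eif3k, 0.03 for Eif3h and 0.08 for Eif3f. Without the 3 muscle-rich libraries it was 0.18 for Eif3k, 0.09 for Eif3h and 0.01 for Eif3f.

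The loosely bound j subunit has an uncertain row. Eif3j1 was listed at 0.0881, 0.0869 and 0.0869 FPKM in Atf4AKO and at 14.3, 0.0874 and 0.0870 FPKM in Atf4WT. It thus passed the filter on low values through Atf4WT 1 alone. Its exons share 1107 bases with Spg11 on the opposite strand. Eif3j2 was 59.2, 75.1 and 70.5 FPKM in Atf4AKO and 60.7, 71.02 and 82.1 FPKM in Atf4WT. The coding sequences of Eif3j1 (783 bases, chromosome 2) and Eif3j2 (789 bases, chromosome 18) have 99.2% identity and share a run of 781 identical bases, so reads from one cannot be told from the other over almost all of it. The sum of the 2 rows was 59.3, 75.2 and 70.5 FPKM in Atf4AKO and 75.0, 71.1 and 82.2 FPKM in Atf4WT. In the sum Atf4WT 1 no longer stood apart, and the groups overlapped. The log2 difference of -1.27 for Eif3j1 alone (SE 1.01, limma adjusted p = 0.607) is thus a value of 1 library.

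Factors of scanning and start codon choice included the most abundant member. Eif1, which keeps the ribosome scanning until it meets a good start codon, was 832.7, 1106 and 887.1 FPKM in Atf4AKO and 686.6, 928.1 and 846.9 FPKM in Atf4WT, at the 99.6 percentile of all genes. Its paralog Eif1b was 45.6, 44.5 and 48.4 FPKM in Atf4AKO and 51.7, 54.1 and 57.8 FPKM in Atf4WT. Every Atf4AKO library was lower in Eif1b, with a log2 difference of -0.24 (SE 0.10, 95% interval -0.48 to 0.01, limma adjusted p = 0.501), which stayed between -0.27 and -0.19 when any single library was left out and was -0.38 after rescaling to equal sums. The ratio of Eif1b to Eif1 was 0.0547, 0.0402 and 0.0546 in Atf4AKO and 0.0753, 0.0583 and 0.0683 in Atf4WT. Eif1b shares 143 exonic bases with D830035M03Rik on the opposite strand. Eif1ad, an eIF1A-like protein, was 12.3, 12.97 and 13.6 FPKM in Atf4AKO and 13.5, 17.3 and 14.5 FPKM in Atf4WT, and its groups overlapped by 13.59 FPKM in Atf4AKO 3 against 13.53 FPKM in Atf4WT 1. Eif1a, Eif1ad and Eif1ax, of which Eif1a and Eif1ax encode the scanning partner of eIF1, had log2 differences of -0.25, -0.20 and -0.10. Eif5, which triggers GTP hydrolysis by eIF2 at the start codon, was 119.9 ± 5.69 FPKM in Atf4AKO and 116.4 ± 6.52 FPKM in Atf4WT (SD, n = 3 each).

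None of the late factors passed the test. Eif5b, which joins the large subunit, was 11.3 ± 0.435 FPKM in Atf4AKO and 12.2 ± 0.694 FPKM in Atf4WT, and Eif6, which keeps the subunits apart, was 39.4 ± 1.496 FPKM in Atf4AKO and 39.9 ± 3.12 FPKM in Atf4WT (SD, n = 3 each). Eif5a, the hypusine-bearing factor now known to act in elongation, was 307.1, 313.6 and 271 FPKM in Atf4AKO and 271, 294.5 and 291 FPKM in Atf4WT. Eif5a2, its paralog, was between 0.662 and 1.29 FPKM in Atf4AKO and between 0.677 and 0.972 FPKM in Atf4WT.

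**Figure D5:**
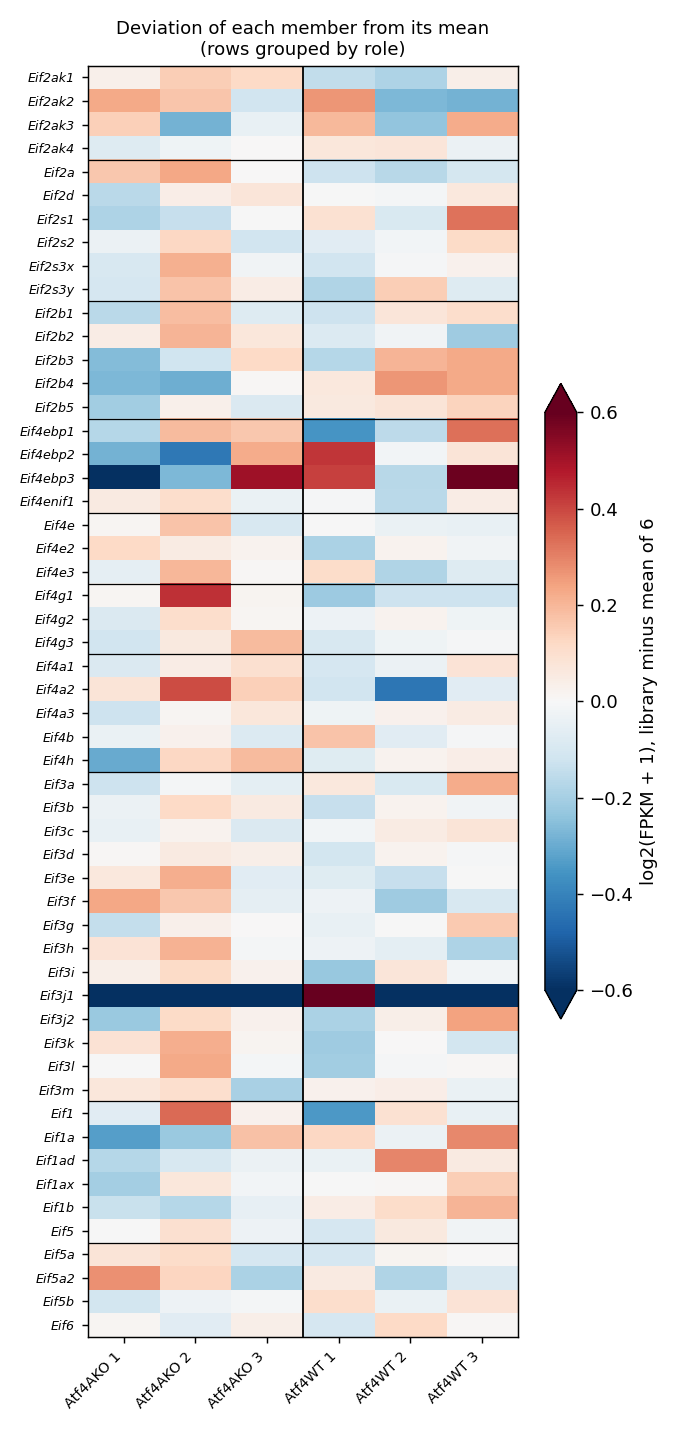
Deviation of each tested member from its mean over the 6 libraries, log2(FPKM + 1), with rows grouped by role, Atf4AKO columns left and Atf4WT columns right. The colour scale ends at -0.6 and 0.6, which Eif3j1 and Eif4ebp3 reach. The median deviation of the members was highest in Atf4AKO 2 (0.10) and lowest in Atf4AKO 1 (-0.06), both of the same genotype.

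Across libraries, the members' median lay highest and lowest within the same genotype. Their median deviation from the mean of 6 libraries was -0.06, 0.10 and 0.00 in Atf4AKO and -0.04, -0.01 and 0.01 in Atf4WT, on the log2(FPKM + 1) scale. That of all tested genes lay between -0.02 and 0.00 in the 6 libraries. Without Atf4AKO 2 the median difference of the members was -0.01, and without Atf4AKO 1 it was 0.05.

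Genes next to these steps did not pass either, in lists chosen with earlier results of these data known. Over all tested genes 9.95% had an unadjusted p under 0.05, and the groups did not overlap in 16.5%. Among 11 regulators of eIF2 phosphorylation 0 passed, 1 had an unadjusted p under 0.05, 4 differences were positive and 7 negative with a median of -0.04, and in 1 the groups did not overlap. That gene was Ppp1r15a, the stress-induced phosphatase subunit GADD34 that reverses eIF2 phosphorylation, at 99.96, 122.2 and 93.6 FPKM in Atf4AKO and 65.5, 80.3 and 88.1 FPKM in Atf4WT (log2 difference 0.43, limma adjusted p = 0.50). Of 16 regulators of mTOR and eIF4E 0 passed and 2 had an unadjusted p under 0.05, with 9 positive and 7 negative differences and a median of 0.04. Among them Ddit4, which restrains mTOR, was 577.5, 865.2 and 619.2 FPKM in Atf4AKO and 384.1, 528.4 and 502.1 FPKM in Atf4WT. Mtor itself was 16.2, 17.3 and 14.95 FPKM in Atf4AKO and 10.8, 14.4 and 13.3 FPKM in Atf4WT. Sesn2, which signals low leucine to mTOR and is a known ATF4 target in mouse cells, was 61.1, 110.9 and 68.1 FPKM in Atf4AKO and 37.1, 52.4 and 41.4 FPKM in Atf4WT (log2 difference 0.83, limma adjusted p = 0.50). In Ddit4, Mtor and Sesn2 no library of one genotype reached the range of the other, with Atf4AKO the higher. These are 3 of the 16 genes, against 8.21% of all genes. Larp1, which binds messengers of the translation machinery downstream of mTOR, was wholly lower at 17.75, 19.6 and 19.6 FPKM in Atf4AKO against 21.5, 20.98 and 22.1 FPKM in Atf4WT (log2 difference -0.17, limma adjusted p = 0.534).

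The remaining lists are given by their counts. Beside them, 9.95% of all tested genes had an unadjusted p under 0.05, 8.21% lay wholly above and 8.34% wholly below. Of 6 poly(A)-binding genes 0 passed, also at an unadjusted p under 0.05, the median was -0.14, and Paip1 and Pabpn1 lay wholly below in Atf4AKO, with log2 differences of -0.24 and -0.26. Among 14 other helpers of initiation 0 passed, also before adjustment, with 4 positive and 10 negative and a median of -0.10. Ddx3x alone lay wholly above, at 127, 154.8 and 135.2 FPKM in Atf4AKO against 117.7, 125.7 and 116.7 FPKM in Atf4WT. Among 3 termination factors 0 passed, also before adjustment, with a median of -0.03. Of 9 elongation genes 0 passed and 1 had an unadjusted p under 0.05, with a median of 0.10. That gene, deposited as Fam86, was 6.37, 4.92 and 6.88 FPKM in Atf4AKO and 8.55, 7.37 and 8.56 FPKM in Atf4WT (log2 difference -0.38, limma adjusted p = 0.50). Eef1d, which recharges the elongation factor eEF1A, was 66.1, 71.97 and 72.1 FPKM in Atf4AKO and 79.5, 73.8 and 80.3 FPKM in Atf4WT. In Fam86 and Eef1d the Atf4AKO libraries lay wholly below, and in 0 of the 9 wholly above. Eef1a2, the elongation factor isoform of muscle and neurons, was 15.5, 41.2 and 0.106 FPKM in Atf4AKO and 0.167, 4.81 and 0.206 FPKM in Atf4WT, high in the same 3 libraries as the muscle markers. Eef1a1, the widely expressed isoform, was 3107, 3099 and 2776 FPKM in Atf4AKO and 2864, 2377 and 2533 FPKM in Atf4WT, and the groups overlapped. Both isoforms were named after their values were seen. Of 20 cytosolic tRNA synthetases 0 passed and 6 had an unadjusted p under 0.05, against 9.95% of all genes, with 16 negative and a list median of -0.18. In 7 of the 20 the Atf4AKO libraries lay wholly below, against 8.34% of all genes, and in 0 wholly above. Smallest in p were Mars, Yars and Cars, all wholly below. Their log2 differences were -0.45, -0.49 and -0.61 (limma adjusted p = 0.50 each). In the list 4 differences were positive.

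The promoters of the members were searched for the composite site of ATF4 and C/EBP proteins, written TGATGNAA, on both strands. The windows held 300 bases, from 250 before to 50 after each RefSeq start (GRCm38.p6), and 43 of the 55 members had 56 such windows. The motif was in 1 of them, that of Eif2s3x, while 3.97% of all 32851 promoters held it. The window of Eif2s3x (chrX:94212602-94212901, minus strand) is shown with the match in capitals, which reads as the reverse complement of the motif. GENCODE M21 starts the gene further upstream, at position 94212862. By that annotation most of the window, with the match, lies within the gene. Eif2s3x had a log2 difference of 0.06 (SE 0.12, limma adjusted p = 0.822). Eif4ebp1, Eif4ebp3 and 10 other members were not searched, and sites outside these windows, in introns for instance, were not looked at.
Eif2s3x: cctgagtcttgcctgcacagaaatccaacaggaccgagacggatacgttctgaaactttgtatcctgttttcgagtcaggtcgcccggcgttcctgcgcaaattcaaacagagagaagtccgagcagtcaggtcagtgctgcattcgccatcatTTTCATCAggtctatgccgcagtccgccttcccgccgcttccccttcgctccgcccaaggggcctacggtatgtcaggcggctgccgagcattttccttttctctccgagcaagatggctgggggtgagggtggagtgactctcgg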

How the data were processed

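Poly(A)-selected stranded Illumina libraries were made from TRIzol-extracted iWAT RNA, per the labels' protocols. The authors deposited 1 table of FPKM for 23997 gene symbols, and the genome build was mm10 per the submitters' processing notes. The aligner, quantifier, annotation and use of strand are not named in the sources used here. Sums of FPKM ran from 524158 to 717778. FPKM does not give absolute depth, and counting intervals and detection limits could not be computed. Relative depth, read from the modal ratio of genes under 0.15 FPKM, ran from 0.933 to 1.19 of the mean.

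Values were analysed as log2(FPKM + 1), and the 12818 genes averaging 0.5 FPKM or more were tested with limma 3.58.1 in R 4.3.3 (eBayes with trend, no covariate, all 6 libraries), adjusted by Benjamini-Hochberg over all of them. A log2 difference on this scale understates that of low genes. Alternatives were other pseudocounts, filters, scalings and variance models, a muscle score covariate, the replicate number as a block, and libraries left out. Positions and coding sequences came from GENCODE M21 (GRCm38) and promoters from RefSeq. Of the 55 members, 13 shared exonic bases with a gene on the opposite strand and 2 with one on the same strand. Those not given with the values include Eif3d (2151 bases, Gm17638), Eif5b (1643 bases, Rev1) and Eif1ad (428 bases, Banf1). Members, roles and gene lists were chosen with earlier results of these data known. Named members were Atf4, the kinases, 4E-binding proteins, eIF2 and eIF2B genes, the 12 of smallest p and the highest of each role, and others were named after their values were seen.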

Additional observations from a re-analysis of the deposited data

How the results depend on the processing

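No member passed the adjusted threshold in any of 17 alternatives, and the smallest adjusted p of a member was 0.149, for Eif2b4 without Atf4AKO 3. Few genes passed at all, from 0 of all tested genes with the replicate block to 3 without Atf4WT 2. Atf4 itself did not pass in any alternative, and its smallest limma adjusted p was 0.116, without Atf4AKO 3. The counts of members moved with rescaling to equal sums and with single libraries. After rescaling to equal sums 0 members lay wholly above and 7 wholly below Atf4WT, with a median of -0.122. After rescaling by the median of ratios 8 lay wholly above and 4 wholly below, with a median of 0.029. In that setting the log2 differences of Eif2a, Eif4a2 and Eif2b4 were 0.27, 0.41 and -0.37. The count at an unadjusted p under 0.05 was 0 with the muscle score covariate (3.56% of all genes) and 1 with the replicate block (15.4%). The setting without the 3 muscle-rich libraries compares Atf4AKO 3 alone, assumed to vary like Atf4WT, with 2 libraries. There 20 members lay wholly above and 17 wholly below, against 27.9% and 28.9% of all genes. Leaving out 1 library gave 0 to 6 members at that p (6 without Atf4AKO 3, 1 without Atf4AKO 1 or Atf4WT 3, 0 without Atf4AKO 2 or Atf4WT 2), 7 to 14 wholly above (14 without Atf4AKO 3) and 4 to 8 wholly below (8 without Atf4AKO 3). Over all genes the share was then 3.9% to 20.3% at that p. It was 9.80% to 20.7% wholly above and 9.83% to 20.6% wholly below, since fewer libraries overlap less.

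Of 31 members named by rule, 17 kept their sign in every alternative and 14 turned in at least 1, all with differences that were not called. After rescaling to equal sums the log2 difference was -0.084 for Eif2s3x, -0.074 for Eif2s3y, -0.116 for Eif4a1, -0.048 for Eif4e3, -0.029 for Eif4ebp1, -0.062 for Eif4enif1, -0.128 for Eif4g2 and -0.095 for Eif5a. With the muscle score covariate it was 0.007 for Eif2d and -0.018 for Eif5a. Without the 3 muscle-rich libraries it was -0.104 for Eif2ak2, 0.091 for Eif2b3, 0.042 for Eif2d, -0.009 for Eif4e3, 0.006 for Eif4ebp3, -0.061 for Eif4enif1 and -0.051 for Eif5a. With 1 library left out it ran from -0.138 to 0.035 for Eif2b1, from -0.078 to 0.039 for Eif2d, from -0.084 to 0.034 for Eif2s2, from -0.025 to 0.129 for Eif2s3x, from -0.026 to 0.07 for Eif4g2, from -0.007 to 0.089 for Eif4a1 and from -0.024 to 0.316 for Eif4ebp1. These are only the settings under which small differences turned, and the cause of the turns was not tested.

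Same-numbered libraries deviated together with correlations of 0.08, 0.40 and 0.07 across genes, and 4 of 6 libraries correlated best with their own number. These values do not settle whether the numbers are pairs. The main fit took no pairs, and the replicate block is given as an alternative. The sum of Eif3j1 and Eif3j2, added after the data were seen, left the counts at 0, 3, 7 and 3. The number of libraries and the lack of absolute depth limit the precision of all values.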
